A study of Homo sapiens with 9 samples.

Results

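The 10 genes described here encode peroxide- and superoxide-removing enzymes: the 6 peroxiredoxins PRDX1 to PRDX6, the superoxide dismutase SOD1, catalase (CAT) and the glutathione peroxidases GPX1 and GPX4. They were chosen by name, and all 10 were found by Ensembl identifier among the 57338 genes of the table. The study transfected HEK293T cells, a human embryonic kidney line, with TransIT-LT1 and a plasmid for EGFP alone (empty vector), for EGFP fused to human protamine 1 (hPRM1) or for EGFP fused to human protamine 2 (hPRM2), and sorted live cells with high EGFP on day 3. Total RNA was taken with a NucleoSpin kit and sequenced with a QuantSeq 3′ kit, which reads the 3′ ends of polyadenylated transcripts, in 3 libraries per condition. Protamines are the small basic proteins that package sperm DNA, and the comparisons ask what their expression does to transcript levels in a somatic cell. Nothing states that libraries of a condition came from separate transfections, so p-values measure only the spread between these libraries.

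Superoxide dismutases turn superoxide into hydrogen peroxide, which peroxiredoxins, glutathione peroxidases and catalase then remove. Peroxiredoxins react through a cysteine that is mostly restored by thioredoxin, which thioredoxin reductase recharges with NADPH. Glutathione peroxidases use glutathione, and GPX1 and GPX4 carry selenocysteine, while catalase is a haem enzyme of peroxisomes that needs no reducing partner. PRDX1 and PRDX2 are cytosolic, PRDX3 is mitochondrial, PRDX4 is in the endoplasmic reticulum, PRDX5 is found in several compartments, and PRDX6 is the member with a single reactive cysteine. PRDX2, catalase and GPX1 are also known as main peroxide-removing enzymes of red blood cells.

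The libraries labelled hPRM1 stood apart from their label. None of the 9 libraries had a PRM1 value above 0, while PRM2 was at 36130 to 71224 RPKM in the hPRM2 libraries and at 0 in the others. A list of 10 HEK293T genes summed to 182 to 262 RPKM in the empty vector and to 124 to 169 RPKM in hPRM2, but to at most 0.556 RPKM in the libraries labelled hPRM1, where 8 of the 10 were at 0 in all 3, LIN28B, NEFM and PAX2 among them (1 of these 8, CRABP1, was at 0 in all 9 libraries). A list of 13 genes of red cell precursors made up 83.2% to 86.6% of the summed RPKM there and at most 0.00211% in the other libraries, where HBB, HBD, ALAS2, AHSP, CA1 and EPB42 were at 0. A list of 14 white blood cell genes summed to 6225 to 7228 RPKM there, at most 3.02 RPKM in the empty vector and at most 19.3 RPKM in hPRM2. A list of 4 platelet genes summed to 312 to 544 RPKM there and at most 13.5 RPKM elsewhere. The part of these cell type markers in the results below was not tested. The labels also give the hPRM1 libraries library numbers from a separate run of numbers, so a batch of libraries cannot be told apart from the condition. The comparisons of these libraries cannot be given without them, while that of hPRM2 with the empty vector does not use them.

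**Figure D1:**
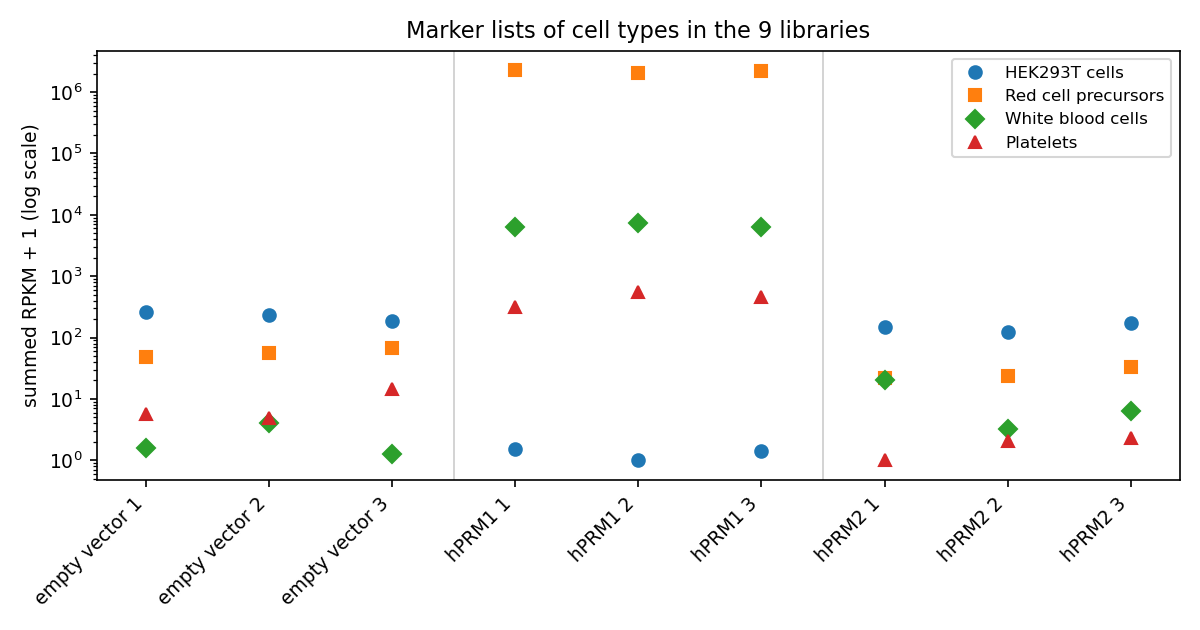
Summed RPKM plus 1 (log scale) of 4 cell type marker lists in each of the 9 libraries. The HEK293T list lies at 124 to 262 RPKM in the empty vector and hPRM2 libraries and at most 0.556 RPKM in the 3 libraries labelled hPRM1, which hold the blood cell lists at their highest sums.

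Estimated reads on genes were 7930000 to 10790000 per library in the empty vector, 4210000 to 5860000 in the libraries labelled hPRM1 and 1270000 to 2650000 in hPRM2. The paper gives fewer reads for hPRM1 than for hPRM2, the reverse of this order. Its figures are of reads obtained, not of reads on genes, and no counts were available to check the estimates. The counting error of a single value was largest for PRDX4 in the libraries labelled hPRM1 (24.1% to 57.7%), and for CAT it was largest in hPRM2 (17.4% to 28.8%). In hPRM2, replicate 1 was the least like its group (Pearson r across genes of 0.67 and 0.70 with replicates 2 and 3, which correlated at 0.86). In summed RPKM of all genes, replicates 2 and 3 stood apart instead (2.11e+07 and 1.82e+07). Replicate 1 was at 3.80e+06 and the empty vector at 2.61e+06 to 3.16e+06. RPKM divides by gene length although a 3′ kit makes about as many reads from a long as from a short transcript, so levels of different genes are compared below only per length and understate long genes such as CAT (2295 bases, against 966 for SOD1). None of the 16 processed pseudogenes of these 10 genes had a value above 0 in any library.

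The stretches before the start sites of CAT and GPX1, which were not lower in the libraries labelled hPRM1, and of PRDX3 and PRDX4, which had the lowest levels there, are shown to place the genes beside each other. They are the 250 bases before the RefSeq start site in GRCh38.p14, 5′ to 3′ on the strand of the gene, but GENCODE 29 starts some of these genes elsewhere, so that the window of PRDX4 lies wholly, that of GPX1 almost wholly and those of CAT and PRDX3 by a short stretch inside the span of the gene. Capitals mark CCAAT and GGGCGG read on either strand, 2 motifs known as the CCAAT box and the GC box.
CAT, chr11:34438684-34438933, plus strand: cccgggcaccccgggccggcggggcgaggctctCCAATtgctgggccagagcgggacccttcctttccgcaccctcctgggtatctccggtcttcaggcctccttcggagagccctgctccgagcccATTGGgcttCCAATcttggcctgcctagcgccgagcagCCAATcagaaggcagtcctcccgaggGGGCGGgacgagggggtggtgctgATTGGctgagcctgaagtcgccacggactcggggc
GPX1, chr3:49358354-49358603, minus strand: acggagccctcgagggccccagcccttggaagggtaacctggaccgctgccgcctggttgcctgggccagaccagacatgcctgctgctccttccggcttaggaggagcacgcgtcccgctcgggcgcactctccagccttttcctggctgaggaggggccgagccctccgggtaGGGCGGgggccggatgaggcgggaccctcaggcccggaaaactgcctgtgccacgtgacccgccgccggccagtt
PRDX3, chr10:119178813-119179062, minus strand: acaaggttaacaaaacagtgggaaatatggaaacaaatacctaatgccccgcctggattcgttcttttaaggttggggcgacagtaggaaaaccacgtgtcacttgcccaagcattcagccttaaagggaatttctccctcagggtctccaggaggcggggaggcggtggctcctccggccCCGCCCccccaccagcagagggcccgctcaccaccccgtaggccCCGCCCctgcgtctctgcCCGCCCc
PRDX4, chrX:23667243-23667492, plus strand: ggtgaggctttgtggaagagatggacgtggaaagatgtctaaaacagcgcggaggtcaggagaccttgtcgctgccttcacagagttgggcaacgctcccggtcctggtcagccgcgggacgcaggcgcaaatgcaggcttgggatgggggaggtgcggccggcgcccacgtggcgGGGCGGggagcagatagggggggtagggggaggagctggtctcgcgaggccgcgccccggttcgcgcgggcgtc
The table of promoters held 10 windows of 7 of the genes, with more than 1 for PRDX5 and GPX4, and none for PRDX1, PRDX6 or SOD1. All 10 windows held GGGCGG, which 42.6% of 35116 promoter windows of the same length hold. CCAAT occurred 5 times before CAT and 2 and 3 times in 2 overlapping windows of GPX4, and in none of the other windows of these genes, while 32.0% of all windows hold it. TATAAA (10.7% of all windows), AGATAA (9.17%), TGATAA (6.66%) and TGACNNNGC (10.9%), searched on both strands, were in none of the 10 windows. The GC content of the printed windows was 68.8% for CAT, 70.8% for GPX1, 60.4% for PRDX3 and 68.4% for PRDX4, beside a median of 58% over all windows. These matches describe the letters and were not tied to any measurement.

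In the empty vector, SOD1 had the highest level per length (930 ± 66.7 RPKM, SD, n = 3), followed by PRDX1 (606 ± 44.2), GPX4 (421 ± 126), PRDX4 (419 ± 32.9), GPX1 (200 ± 52.8), PRDX5 (191 ± 54.2), PRDX6 (186 ± 8.0), PRDX2 (114 ± 26.9), PRDX3 (107 ± 7.26) and CAT (16.3 ± 1.61). Neighbours in this order whose libraries overlapped were GPX4 and PRDX4, GPX1 and PRDX5, PRDX5 and PRDX6, and PRDX2 and PRDX3. The order in hPRM2 also ran from SOD1 (1182 ± 397 RPKM) to CAT (6.29 ± 1.79). In the libraries labelled hPRM1, GPX1 (208 ± 77.4 RPKM) and CAT (89.8 ± 32.2) led, and PRDX3 (3.58 ± 0.356) and PRDX4 (3.28 ± 2.27) were last, with overlapping libraries. All 10 genes had values above 0 in all 9 libraries, and all but PRDX4 reached 1 RPKM in every library.

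**Figure D2:**
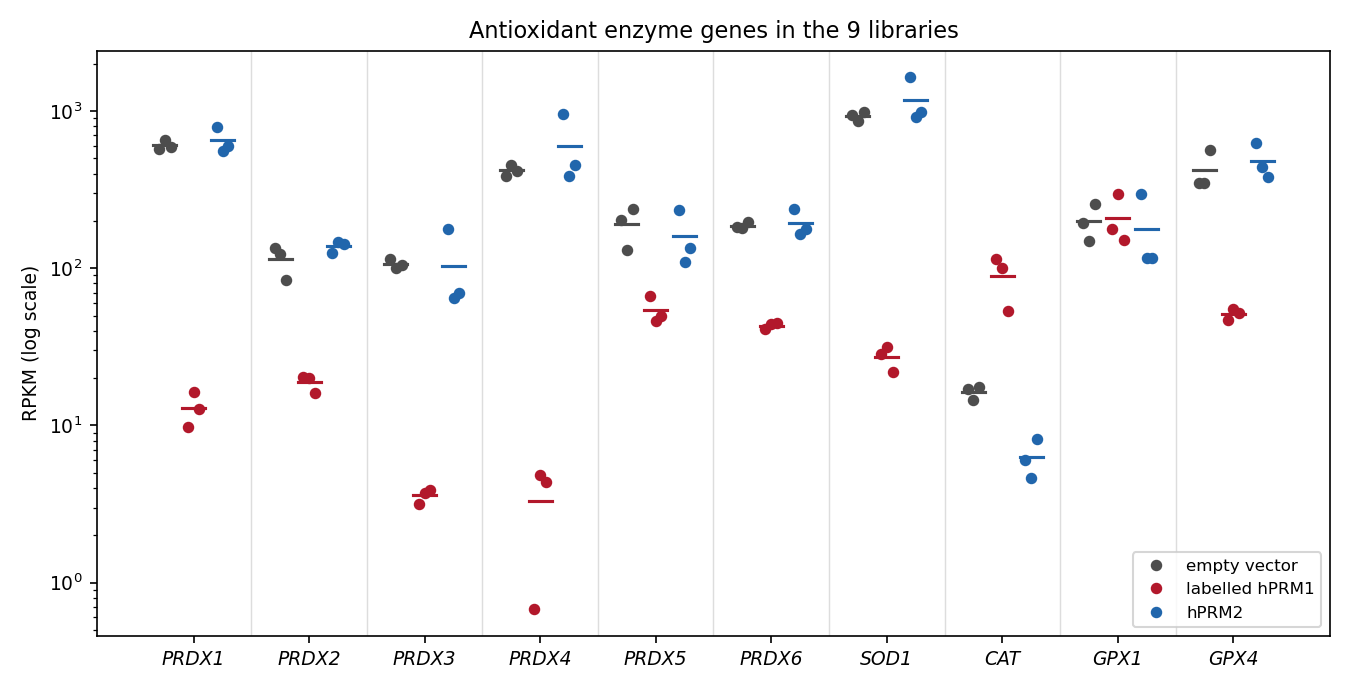
RPKM (log scale) of the 10 genes, with 1 point per library and a bar at the mean of the 3 libraries of each condition. In the libraries labelled hPRM1, 8 genes lie below all empty vector libraries, CAT lies above them and GPX1 overlaps them. Overlap was not counted over all genes, of which 62.5% were called lower and 12.9% higher in this comparison.

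Against the empty vector, 8 of the 10 genes were lower in the libraries labelled hPRM1, 1 was higher (CAT) and 1 was not called (GPX1), by limma on log2(RPKM + 1) with Benjamini-Hochberg adjustment over 13588 genes and calls at 2-fold or more and adjusted p up to 0.05. Over all genes tested, 62.5% were called lower and 12.9% higher, so most genes moved the way the 8 did. The median over the 10 genes was -2.74 on the log2 scale, beside -1.72 for all genes tested. Rescaling each library by median-of-ratios, which brings the median of all genes to -0.12, left 4 of the 10 lower (PRDX1, PRDX3, PRDX4 and SOD1) and made 2 higher (CAT and GPX1), beside 29.0% lower and 28.9% higher over all genes. In these bulk samples, fewer cells of a type and less RNA per cell cannot be told apart.

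Among the cytosolic peroxiredoxins, PRDX1 (chr1:45511036-45523047, minus strand) was at 574, 657 and 588 RPKM in the empty vector, at 9.71, 16.4 and 12.6 RPKM in the libraries labelled hPRM1 and at 796, 560 and 597 RPKM in hPRM2. All 3 libraries labelled hPRM1 lay far below the others, while hPRM2 overlapped the empty vector. Its log2 fold change for the libraries labelled hPRM1 was -5.47 ± 0.22 (SE, limma adjusted p = 4.38e-06). Rescaling by median-of-ratios brought it to -3.35. PRDX2 (chr19:12796820-12801859, minus strand) was at 135, 122 and 83.5 RPKM in the empty vector, at 20.3, 19.9 and 16.1 RPKM in the libraries labelled hPRM1 and at 125, 147 and 143 RPKM in hPRM2. The groups did not overlap between the empty vector and the libraries labelled hPRM1, with a log2 fold change of -2.51 ± 0.24 (limma adjusted p = 9.12e-05). With median-of-ratios rescaling it was -0.38 and no longer called (adjusted p = 0.176).

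PRDX4 (chrX:23664262-23686399, plus strand), the peroxiredoxin of the endoplasmic reticulum, had the largest difference of the 10 genes. It was at 387, 452 and 417 RPKM in the empty vector, at 0.678, 4.8 and 4.38 RPKM in the libraries labelled hPRM1, which rest on an estimated 3, 15 and 17 reads, and at 961, 385 and 452 RPKM in hPRM2. Its log2 fold change for the libraries labelled hPRM1 was -6.81 ± 0.48 (limma adjusted p = 2.7e-05) and -4.92 after rescaling. The mitochondrial PRDX3 (chr10:119167703-119178833, minus strand) was at 114, 100 and 106 RPKM in the empty vector, at 3.18, 3.72 and 3.85 RPKM in the libraries labelled hPRM1 and at 179, 64.4 and 69.1 RPKM in hPRM2. Its log2 fold change was -4.55 ± 0.18 (limma adjusted p = 4.25e-06), and -2.56 after rescaling. In hPRM2, replicate 1 was above and replicates 2 and 3 were below every empty vector library for PRDX3.

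PRDX5 and PRDX6 differed least among the peroxiredoxins. PRDX5 (chr11:64318088-64321811, plus strand) was at 204, 131 and 238 RPKM in the empty vector, at 66.6, 46.2 and 49.8 RPKM in the libraries labelled hPRM1 and at 235, 109 and 134 RPKM in hPRM2. PRDX6 (chr1:173477266-173488807, plus strand) was at 183, 181 and 196 RPKM, at 40.8, 43.8 and 44.6 RPKM and at 240, 165 and 179 RPKM in the same order. Both were called lower in the libraries labelled hPRM1, PRDX5 at a log2 fold change of -1.77 ± 0.27 (limma adjusted p = 0.000907) and PRDX6 at -2.09 ± 0.15 (adjusted p = 2.76e-05), but these values turned to 0.39 and 0.07 with median-of-ratios rescaling. Of all genes tested, 48.8% had a log2 fold change at or below that of PRDX5 and 41.2% at or below that of PRDX6, while 0.662% were at or below PRDX4.

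Within the summed RPKM of the 6 peroxiredoxins, which does not depend on the scaling of a library, PRDX1 (37.3% ± 2.27) and PRDX4 (25.8% ± 1.66) held the largest shares in the empty vector. In the libraries labelled hPRM1 these were PRDX5 (39.8% ± 6.66) and PRDX6 (31.8% ± 2.61), with PRDX1 at 9.56% ± 2.65 and PRDX4 at 2.46% ± 1.72 (SD, n = 3). The share of PRDX2 was 8.46%, 7.45% and 5.13% in the empty vector. It was 14.4%, 14.8% and 12.3% in the libraries labelled hPRM1 and 4.94%, 10.3% and 9.11% in hPRM2. All 3 libraries labelled hPRM1 lay above the others in this share. Its mean was 6.78 percentage points above the empty vector and 5.67 points above hPRM2, each with a two-sided exact permutation p of 0.1, the smallest that 3 libraries against 3 can give, so no share in these data could reach 0.05. Over all 48 comparisons of shares the adjusted p of these 2 was 0.16. The share of PRDX2 in hPRM2 differed from the empty vector by 1.11 points (exact permutation p = 0.6), and the groups overlapped. Within the sum of all 10 genes, the share of PRDX2 overlapped between all groups. It was 3.61% ± 1.05 in the empty vector, 3.71% ± 0.426 in the libraries labelled hPRM1 and 4.07% ± 1.41 in hPRM2. The rise in the libraries labelled hPRM1 is thus one within the peroxiredoxins only.

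**Figure D3:**
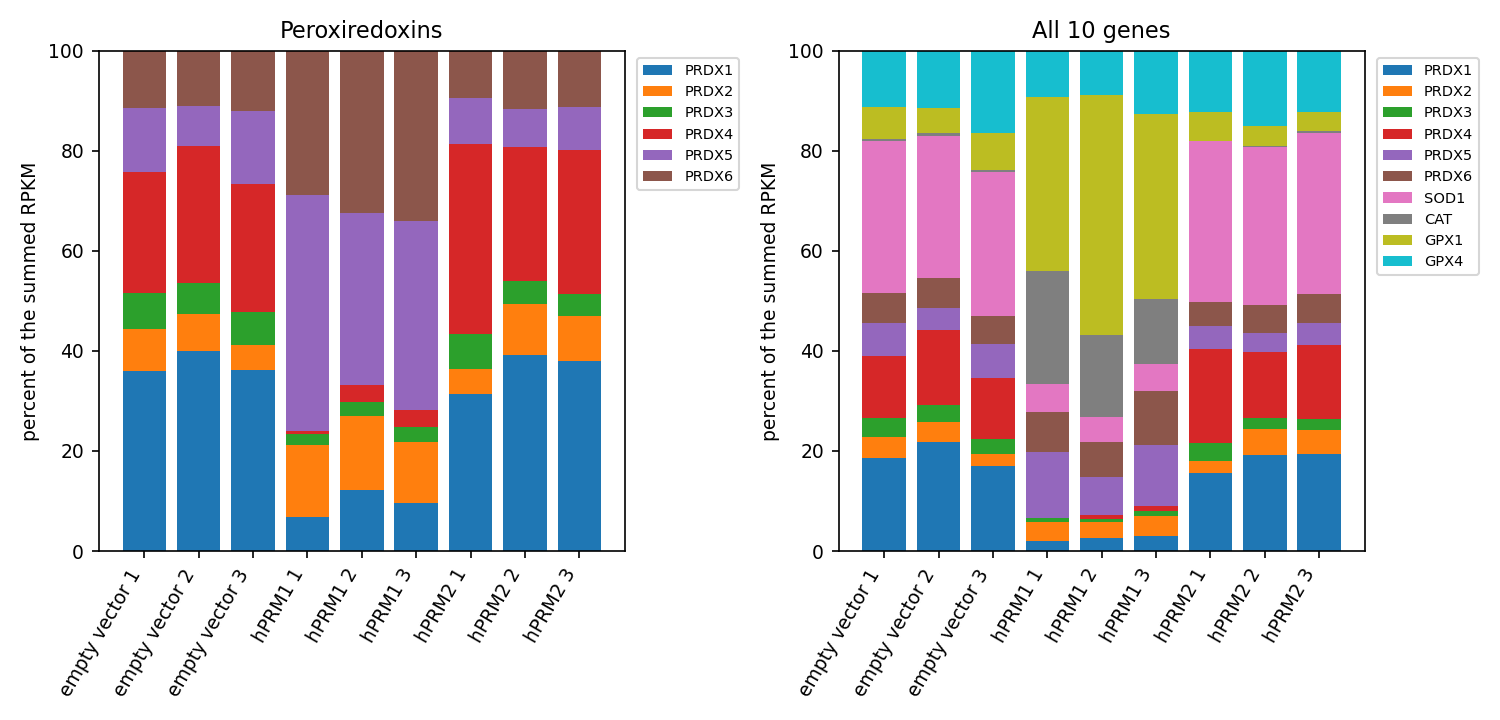
Percent of the summed RPKM held by each gene in each library, among the 6 peroxiredoxins (left) and among all 10 genes (right). PRDX5 and PRDX6 hold most of the peroxiredoxin sum in the libraries labelled hPRM1, where GPX1 and CAT hold 39.9% and 17.3% of the sum of the 10 genes on average.

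SOD1 (chr21:31659622-31668931, plus strand), the copper- and zinc-containing dismutase of the cytosol, was at 939, 860 and 993 RPKM in the empty vector, at 28.4, 31.4 and 21.8 RPKM in the libraries labelled hPRM1 and at 1638, 918 and 989 RPKM in hPRM2. The libraries labelled hPRM1 lay below all others, with a log2 fold change against the empty vector of -5.06 ± 0.19 (limma adjusted p = 3.72e-06) that was -2.90 after rescaling. SOD1 held 29.2% ± 0.996 of the sum of the 10 genes in the empty vector, 5.32% ± 0.251 in the libraries labelled hPRM1 and 32.0% ± 0.362 in hPRM2. The 3 groups did not overlap in this share (exact permutation p = 0.1 for each pair, adjusted 0.16).

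CAT (chr11:34438925-34472062, plus strand) was the single gene of the 10 that was higher in the libraries labelled hPRM1. It was at 17.1, 14.5 and 17.4 RPKM in the empty vector, at 115, 101 and 53.5 RPKM in the libraries labelled hPRM1 and at 6.06, 4.63 and 8.18 RPKM in hPRM2, where it rests on an estimated 33, 12 and 27 reads. The 3 groups did not overlap. Its log2 fold change for the libraries labelled hPRM1 was 2.32 ± 0.31 (limma adjusted p = 0.000467), and rescaling by median-of-ratios brought it to 4.41. CAT held 0.512% ± 0.0363 of the sum of the 10 genes in the empty vector, 17.3% ± 4.87 in the libraries labelled hPRM1 and 0.182% ± 0.0765 in hPRM2. The difference of 16.8 percentage points between the first 2 had an exact permutation p of 0.1.

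GPX1 (chr3:49357171-49358600, minus strand), which GENCODE 29 lists as a polymorphic pseudogene and which encodes the cytosolic glutathione peroxidase, was at 195, 150 and 255 RPKM in the empty vector, at 177, 297 and 152 RPKM in the libraries labelled hPRM1 and at 297, 117 and 117 RPKM in hPRM2. All 3 groups overlapped. Its log2 fold change for the libraries labelled hPRM1 was 0.03 (95% confidence interval -0.73 to 0.79, limma adjusted p = 0.929), but 2.21 and called higher after median-of-ratios rescaling (adjusted p = 0.000605). The share of GPX1 in the sum of the 10 genes was 39.9% ± 7.05 in the libraries labelled hPRM1, against 6.21% ± 1.20 in the empty vector, without overlap (exact permutation p = 0.1). GPX4 (chr19:1103926-1106791, plus strand), which reduces lipid peroxides in membranes, was at 349, 348 and 567 RPKM in the empty vector, at 47.0, 55.0 and 52.1 RPKM in the libraries labelled hPRM1 and at 622, 438 and 378 RPKM in hPRM2. It was lower in the libraries labelled hPRM1, at a log2 fold change of -2.97 ± 0.23 (limma adjusted p = 4.06e-05) that was -0.81 after rescaling, short of the 2-fold threshold. Its share of the 10 genes overlapped between these groups (13.1% ± 2.88 and 10.3% ± 2.09).

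**Figure D4:**
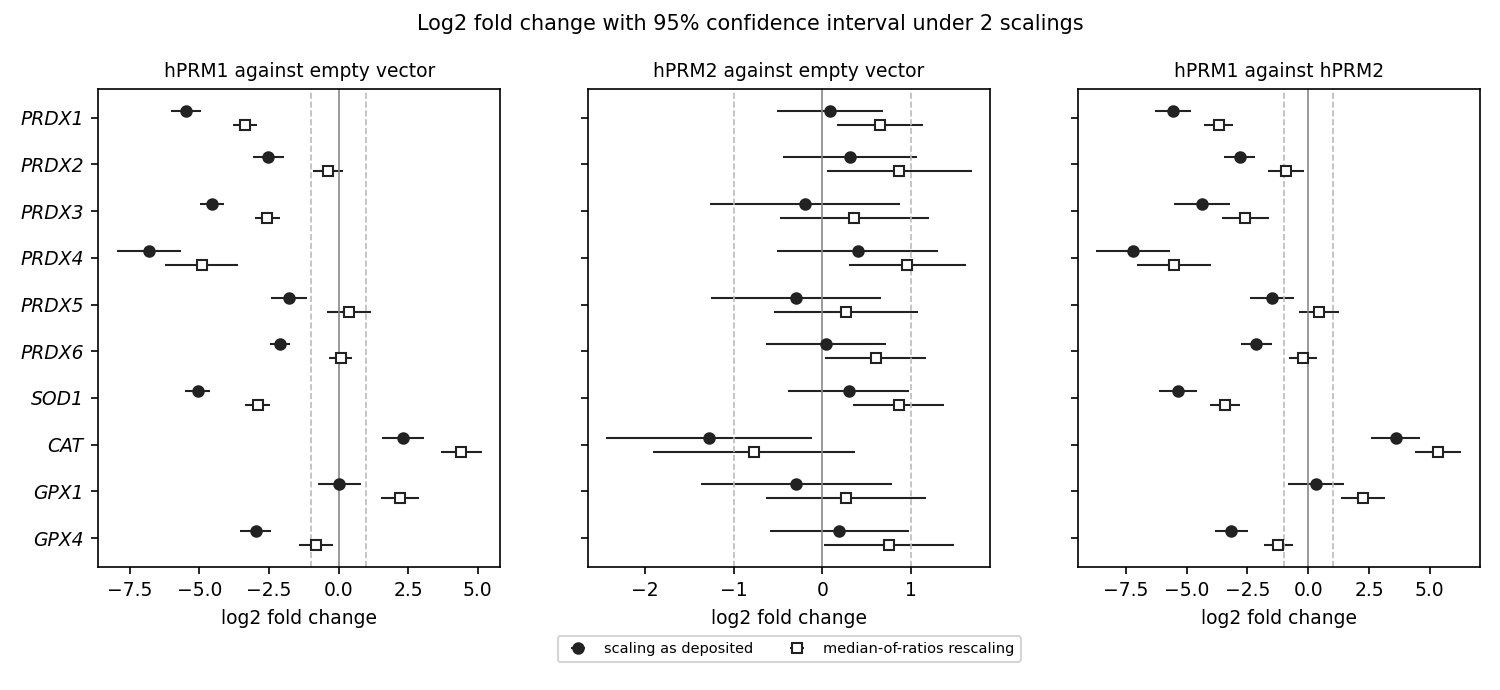
Log2 fold change (x axis) of the 10 genes in 3 comparisons, with 95% confidence intervals from limma, for the scaling as deposited (filled) and after median-of-ratios rescaling (open). Dashed lines mark a 2-fold change. Rescaling moves all 3 comparisons to the right, so that PRDX5 crosses 0 in each, PRDX6 in that of hPRM1 with the empty vector, and PRDX3 and GPX1 in that of hPRM2 with the empty vector.

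Between hPRM2 and the empty vector, 0 of the 10 genes were called by limma, with adjusted p-values from 0.169 to 0.932 and 1 of 10 at an unadjusted p under 0.05, and the per-gene test of the study's methods also called 0. Of all 13126 genes tested, 3351 had an unadjusted limma p under 0.05. Over all 13126 genes tested, 1.37% were called lower and 1.36% higher, or 0.617% and 1.65% after median-of-ratios rescaling, where again 0 of the 10 passed. The median was 0.07 on the log2 scale for the 10 genes and -0.72 for all genes tested. Genes above 0 numbered 9652, 14353 and 15633 in the hPRM2 libraries and 14724 to 16705 in the empty vector. The part of expression level and depth in the gap between these medians was not tested. CAT was the single gene of the 10 whose libraries did not overlap the empty vector, with a log2 fold change of -1.27 (95% confidence interval -2.43 to -0.12, adjusted p = 0.169). Overlap was not counted over all genes tested, so this does not set CAT apart. The other 9 lay between -0.30 (PRDX5) and 0.40 (PRDX4), but between 0.26 (PRDX5) and 0.96 (PRDX4) after median-of-ratios rescaling, where PRDX3 (0.36), PRDX5 (0.26) and GPX1 (0.27) changed sign. The median of the 10 genes was then 0.63, beside -0.26 for all genes. As deposited, the intervals of PRDX1 (-0.51 to 0.68) and PRDX6 (-0.63 to 0.72) stayed within a 2-fold change. So did those of SOD1 (-0.38 to 0.98) and GPX4 (-0.59 to 0.97). After rescaling they reached beyond it (0.17 to 1.13, 0.04 to 1.17, 0.35 to 1.37 and 0.02 to 1.49, in the same order). The change of none of these genes is therefore bounded to less than 2-fold under both scalings. Nor is that of PRDX3 (-1.27 to 0.88 as deposited). Without hPRM2 replicate 1, PRDX3 was at -0.67 (adjusted p = 0.0835), GPX1 at -0.74 (adjusted p = 0.104) and CAT at -1.27 (adjusted p = 0.0695).

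The libraries labelled hPRM1 and hPRM2 were also compared directly. PRDX1 to PRDX6, SOD1 and GPX4 were lower in the libraries labelled hPRM1, CAT was higher and GPX1 was not called (0.32, 95% confidence interval -0.84 to 1.48, limma adjusted p = 0.607). Over all 11756 genes tested, 37.0% were lower and 16.0% higher, with a median log2 fold change of -0.97, or 18.3% lower and 31.1% higher after median-of-ratios rescaling, with a median of 0.50. Of the 10 genes, 5 were lower and 2 higher after this rescaling: PRDX2 (-0.93), PRDX5 (0.44) and PRDX6 (-0.21) were no longer called, and GPX1 was called higher (2.25, adjusted p = 0.00338). The largest differences were those of PRDX4 (-7.21 ± 0.62), PRDX1 (-5.56 ± 0.31) and SOD1 (-5.36 ± 0.32), and CAT was higher by 3.60 ± 0.42 (SE, limma adjusted p = 0.00085). PRDX5 had the smallest called difference (-1.48 ± 0.37, adjusted p = 0.0162), which was not called without hPRM1 replicate 2 (adjusted p = 0.0675) or replicate 3 (adjusted p = 0.0715). This comparison and that with the empty vector share the libraries labelled hPRM1.

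The enzymes that recharge or accompany the 10 were followed in 7 lists of 82 distinct genes. In the libraries labelled hPRM1, 51 of the 74 tested were lower than in the empty vector, 6 were higher and 17 were not called, with a median log2 fold change of -1.67 beside -1.72 for all genes tested. Over all genes, 62.5% were called lower and 12.9% higher, and the counts of each list below are to be read against these shares. After median-of-ratios rescaling 19 were lower and 19 higher, beside 29.0% and 28.9% of all genes. In hPRM2, 2 of the 75 tested were lower and none was higher, beside 1.37% and 1.36% of all genes, and after rescaling 1 was lower and 1 higher, beside 0.617% and 1.65%.

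In the thioredoxin system, 11 of 13 genes were lower in the libraries labelled hPRM1, 1 was higher and 1 was not called, or 5, 2 and 6 after rescaling, beside 62.5% lower and 12.9% higher over all genes, or 29.0% and 28.9% after rescaling. Thioredoxin (TXN), which restores peroxiredoxins, was at 15.6 ± 1.65 RPKM in the libraries labelled hPRM1, against 1388 ± 80.9 RPKM in the empty vector, a log2 fold change of -6.39 ± 0.16 (limma adjusted p = 1.97e-06), and at 2206 ± 600 RPKM in hPRM2 (0.64, adjusted p = 0.176, called higher at 1.20 only after rescaling). TXNDC17, a thioredoxin-like protein (-6.39), NXN, nucleoredoxin (-5.21), and the reductase TXNRD1 (-2.68) were also lower, TXNRD1 not after rescaling (-0.88). TXNIP, which binds and inhibits thioredoxin, was the 1 higher gene, at 506 ± 63.3 RPKM against 57.2 ± 5.87 RPKM (3.12 ± 0.17, adjusted p = 1.02e-05). Sulfiredoxin (SRXN1), which repairs over-oxidised peroxiredoxins, was at -0.23 and not called, and at 1.68 and called higher after rescaling. SESN2, a stress-induced sestrin, was the gene of this list that was lower in hPRM2, at 83.9, 117 and 118 RPKM in the empty vector against 19.9, 21.1 and 20.6 RPKM in hPRM2 (-2.30 ± 0.34, adjusted p = 0.0297, and -1.75 and not called after rescaling).

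Of the other dismutase genes, the mitochondrial SOD2 was higher in the libraries labelled hPRM1 (64.9 ± 10.8 RPKM against 32.8 ± 13.3 RPKM, log2 fold change 1.03 ± 0.33, limma adjusted p = 0.024), opposite to SOD1. CCS, the copper chaperone of SOD1, was lower (-1.34 ± 0.27), but at 0.77 after rescaling. In hPRM2, SOD2 was at 1.10 and CCS at -2.05, neither called, with adjusted p-values of 0.263 and 0.135. Of the other glutathione peroxidases, GPX8 (-4.35) and GPX3 (-3.41) were lower in the libraries labelled hPRM1, GPX3 not after rescaling (-2.09, adjusted p = 0.0546), and GPX7 was listed at 0 in the empty vector and hPRM2 and was at 2.69 ± 0.801 RPKM in the libraries labelled hPRM1.

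In glutathione synthesis and reduction, 15 of 18 genes tested were lower in the libraries labelled hPRM1 and none was higher, with a median log2 fold change of -2.21, and after rescaling 7 were lower and 2 higher, beside the 62.5% and 12.9% of all genes, or 29.0% and 28.9% after rescaling. SLC3A2, a subunit of the cystine carrier (-4.26), and GSTA4, a glutathione transferase (-4.52), were among the lower genes, and CHAC1, which degrades glutathione, was listed at 0 there and at 102 ± 69.0 RPKM in the empty vector. Glutathione reductase (GSR, -1.55) and the glutamate-cysteine ligase subunit GCLM (-2.0) were lower, but GSR was at 0.46 and GCLM at -0.26 after rescaling, neither called. In hPRM2, none of the 18 genes tested was called. CHAC1 came nearest, at 4.02 ± 5.32 RPKM without overlap with the empty vector (-4.80 ± 0.94, adjusted p = 0.0503, and 0.0839 after rescaling), and was named here after its value was seen. Among 8 genes of NADPH supply, ME1 (-3.40), IDH2 (-2.15) and IDH1 (-1.62) were lower in the libraries labelled hPRM1, the latter 2 at -0.07 and 0.45 after rescaling, where 1 of the 8 was lower and 5 were higher. TALDO1, transaldolase of the pentose phosphate pathway, was the gene of this list that was lower in hPRM2, at 795 ± 36.2 RPKM in the empty vector against 96.3 ± 51.9 RPKM in hPRM2 (-3.20 ± 0.46, adjusted p = 0.0268, and -2.64 and still called after rescaling), and it was at 1473 ± 48.4 RPKM in the libraries labelled hPRM1.

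Of 18 tested genes of the NRF2 pathway, which switches on antioxidant genes, 9 were lower in the libraries labelled hPRM1 and 1 was higher, or 1 and 7 after rescaling, against backgrounds of 62.5% and 12.9%, or 29.0% and 28.9%, over all genes. The factor itself (NFE2L2) was at -0.75 and not called (adjusted p = 0.103), but was called higher after rescaling, at 1.39, and its inhibitor KEAP1 was lower at -1.62 and at 0.49 after rescaling. TXNRD1, SLC7A11 (-2.33), the cystine carrier, and GCLM were the lower target genes named by rule, and the 1 higher gene was ferritin light chain (FTL, 1.65), named after its value was seen. HMOX1, haem oxygenase, was at 4.33 ± 2.83 RPKM in the libraries labelled hPRM1, against 2.06 ± 1.33 RPKM for the empty vector (0.78, not called, but 2.26 and called higher after rescaling, adjusted p = 0.00326), and NQO1 was too low to be tested there. In hPRM2 none of the 18 genes tested was called, with NFE2L2 at -2.10 (adjusted p = 0.147) and KEAP1 at -1.59 (adjusted p = 0.161).

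Of 17 tested genes listed under selenoprotein synthesis and other selenoproteins, 14 were lower in the libraries labelled hPRM1 and 2 were higher, or 5 and 2 after rescaling, where all genes stood at 62.5% and 12.9%, or at 29.0% and 28.9%. SEPHS2, which makes the selenium donor, was lower at -3.39 ± 0.33 and still called at -1.41 after rescaling, and the selenocysteine insertion factor SECISBP2 was lower at -1.51, but at 0.64 after rescaling. SELENOM (-3.97), SELENOK (-3.75) and SEPHS1 (-3.70) had the largest falls of this list. The methionine sulfoxide reductases MSRB1 (1.84) and MSRA (1.99) were the 2 higher genes. MSRA, which is not itself a selenoprotein, was listed beside MSRB1 and was named after its value was seen. GPX1, also a selenoenzyme, was not called, and GPX4 was lower, as given above. In hPRM2 none of the 19 genes tested was called, with SECISBP2 at -1.88 (adjusted p = 0.0737).

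**Figure D5:**
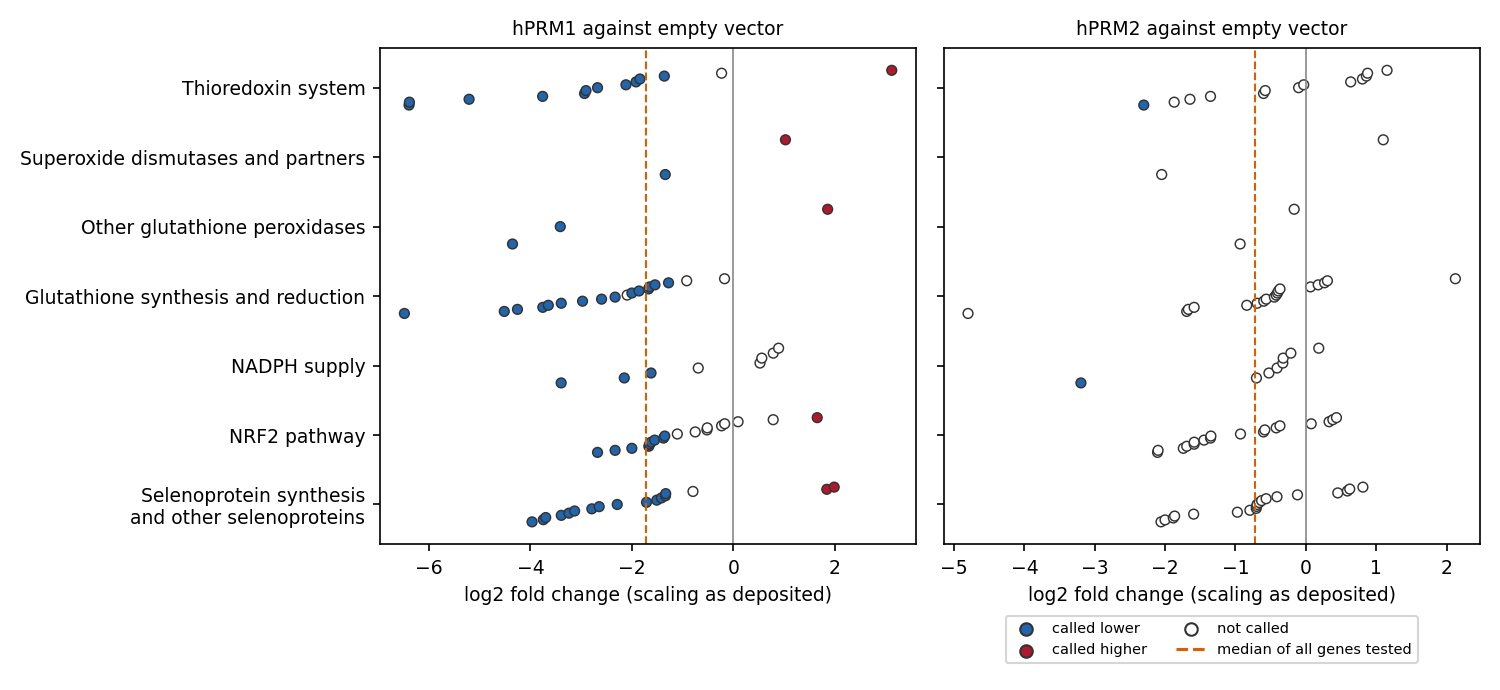
Log2 fold change (x axis, scaling as deposited) of each tested gene of 7 lists against the empty vector, for the libraries labelled hPRM1 (left) and hPRM2 (right). The dashed lines mark the median of all genes tested, -1.72 on the left and -0.72 on the right, and the 2 filled points on the right are SESN2 and TALDO1.

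Across the 9 libraries, the 8 genes that were lower in the libraries labelled hPRM1 had Pearson correlations of log2(RPKM + 1) with each other of 0.84 (PRDX2 and PRDX5) to 0.996 (PRDX3 and PRDX6), CAT had -0.93 (with PRDX4) to -0.74 (with PRDX5) with them, and GPX1 had -0.24 to 0.16. The 9 points form 2 separate sets, the libraries labelled hPRM1 and the others, so these values describe that split. Among 14821 genes, those most like PRDX1 were NDUFB9, NDUFB6 and PRC1, those most like SOD1 were S100A13, NME1 and RPL15, and those most like PRDX4 were NASP, RPS4X and DCTN3, at r from 0.997 (DCTN3) to 0.999 over the 9 libraries. CAT was most like AL365361.1 (r = 0.99), DENND1C and IRF1-AS1. GPX1 had the weakest match, SBK1 at r = 0.94.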

How the data were processed

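RNA of 9 libraries was compared, with 3 per condition. According to the methods, the authors processed reads with nf-core/rnaseq, removed mitochondrial genes and divided counts by library total and gene length. The authors deposited these RPKM values, without counts. The labels name FastQC, cutadapt, STAR, Salmon and hg38. The annotation release is not given in the sources used here. Symbols covered 98.6% of identifiers, and 437 more were named from GENCODE 29, SOD2 among them. Gene coordinates are those of GENCODE 29 (GRCh38).

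Genes that reached 1 RPKM in 3 or more of the 6 libraries compared were fitted with limma 3.58.1 (R 4.3.3; trend, robust) on log2(RPKM + 1), a scale that understates changes of low genes, without a replicate block. For shares, exact permutation tests (two-sided) were run in SciPy 1.17.1. Depth was estimated from the smallest steps of RPKM, after subtracting 250 bases from transcript lengths, and covers counting error only. The fits were tested on simulated data in which only genes of high level were changed, so low genes such as CAT were not covered. The simulated data also held no shift of most genes like that in the libraries labelled hPRM1.

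The members and lists were chosen with earlier results of these data known. Named pathway genes are at most 3 per list and comparison with the largest called change and no overlap, plus 14 fixed genes. Alternatives were a pseudocount of 0.1 or 5, a minimum of 10 RPKM or none, 2 rescalings, all 9 libraries in 1 fit, the replicate block, single libraries left out, calls by adjusted p alone and the methods' own test per gene.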

Additional observations from a re-analysis of the deposited data

How the results depend on the processing

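Against the empty vector, the libraries labelled hPRM1 had 8 of the 10 genes lower and 1 higher, and these counts were 4 and 2 with median-of-ratios rescaling, 5 and 2 with quantile normalization, and 5 and 0 with the per-gene test of the methods. Against hPRM2 they had 8 lower and 1 higher, and 5 and 2 with median-of-ratios, 6 and 2 with quantile normalization, and 0 and 0 with the per-gene test. Over all genes, quantile normalization called 4672 of 13588 lower and 3404 higher against the empty vector. Against hPRM2 it called 2572 of 11756 lower and 3114 higher. Calls over all genes were not counted for the per-gene test. Rescaling turned PRDX5 against the empty vector to 0.39 (median-of-ratios) and 0.00402 (quantile), PRDX6 to 0.0736 (median-of-ratios), and PRDX5 against hPRM2 to 0.44 and 0.24. By construction, median-of-ratios divides every gene of a library by 1 factor, and the per-gene test estimates the spread of each gene from its own 6 values alone. PRDX1, PRDX3, PRDX4, SOD1 and CAT kept their direction and call in both comparisons with the libraries labelled hPRM1 under all 14 limma alternatives.

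Leaving out single libraries gave 8 lower genes against the empty vector and 7 to 8 against hPRM2 (PRDX5 was lost), with 1 higher in both, and 0 called for hPRM2 against the empty vector. The PRDX2 share then differed by 5.84 to 7.55, 4.09 to 6.77 and 0.0126 to 2.69 points, and the CAT share by 14.2 to 19.0, 14.5 to 19.3 and -0.373 to -0.299 points, for hPRM1 against the empty vector, hPRM1 against hPRM2 and hPRM2 against the empty vector. With the replicate number as a block, the counts stayed at 8 lower and 1 higher in both comparisons of the libraries labelled hPRM1 and 0 for hPRM2. Same-numbered libraries had correlated deviations of -0.0783 to 0.0795, so the numbers only name the libraries. Depth limits PRDX4 in the libraries labelled hPRM1 (an estimated 3 to 17 reads) and CAT in hPRM2 (12 to 33).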
